A study of Sus scrofa with 12 samples.

Results

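EPCAM, MARVELD2 and 8 other genes of epithelial cell junctions and of the simple epithelial keratins (MARVELD3, OCLN, CDH1, CLDN4, CLDN7, KRT8, KRT18 and KRT19) were taken by their exact symbols from the 29884 genes of the ovary gene table, and all 10 were found. EPCAM and MARVELD2 were selected because their levels were higher in the ovaries of sows with large litters (LLS) than of sows with small litters (SLS), most of all in 2 LLS ovaries, so their difference between the groups is given as a description. The other 8 genes were selected for what they do. Whole left ovaries were taken from commercial pigs 4 days after the 4th delivery, 3 from the SLS group (8.48 ± 0.53 piglets per litter) and 3 from the LLS group (16.19 ± 0.43 piglets per litter). Both groups came from the same commercial herd, with no treatment or genetic change named in the labels. ZD2, ZD3 and ZD12 belong to the SLS group and ZD5, ZD7 and ZD8 to the LLS group, with 1 library of RNA freed of ribosomal RNA and 1 library of small RNA from each. Whole tissue was measured, so fewer cells of a type and less RNA per cell cannot be told apart.

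Epithelial cells are held together near their apical side by tight junctions, which seal the space between cells, and below them by adherens junctions, in which cadherins of neighbouring cells bind each other. Where 2 cells meet, occludin and claudins form the strands of the tight junction, and where 3 cells meet, tricellulin, the product of MARVELD2, and the angulins close the corner. Simple keratins form the filament network of these cells, and EPCAM, a surface protein of many simple epithelia, binds claudin-7 and modulates adhesion. In the ovary, epithelial features are known from the surface epithelium, from the rete ovarii and, in part, from granulosa cells and germ cells.

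ZD8 stood apart from the other ovaries before any single gene was compared. Its mean Spearman correlation with the other libraries was 0.765, against 0.903 to 0.920 for the others. The 6 markers of luteal cells summed to 123 FPKM (reads scaled to transcript length and library size) in ZD8 and to between 9167 and 12191 FPKM in the other 5 ovaries, and the 7 oocyte markers summed to 125 FPKM against 6.49 to 22.7 FPKM. Gene libraries held between 32272803 (ZD8) and 60903268 reads. Differences between the groups are therefore given with and without ZD8, except for MARVELD3. Over all tested genes the median log2 difference was 0.02 with ZD8 and −0.10 without it. Markers of the surface epithelium were weak. The 6 of 7 that were measured summed to between 26.9 and 45.6 FPKM, most of it PODXL, which endothelium also expresses. UPK1B was at 2.18 to 3.45 FPKM, BNC1 reached 2.21 FPKM in ZD8, and UPK3B, LRRN4 and CALB2 stayed at or below 0.164 FPKM. PAX2, a marker of the oviduct and rete ovarii, was at 0 in all 6 libraries, with an upper limit of 3 reads per library.

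The members lie on 5 chromosomes of the Sscrofa11.1 assembly, and no other annotated gene overlaps any of them. EPCAM (chr3:93169800-93185221, minus strand) has 9 exons, and its annotated transcript is 1368 bases long. MARVELD2 (chr16:47529857-47563485, plus strand) is followed by OCLN (chr16:47600175-47652435, plus strand), a gene of the same MARVEL-domain family. KRT8 (chr5:18172423-18180277, minus strand) and KRT18 (chr5:18217686-18221432, plus strand), whose products pair to form one keratin filament, lie next to each other in opposite directions. CDH1 (chr6:18075487-18155986, minus strand), MARVELD3 (chr6:14616508-14630798, plus strand), CLDN4 (chr3:11039711-11053930, plus strand), CLDN7 (chr12:52612517-52628376, minus strand) and KRT19 (chr12:21115453-21119115, plus strand) complete the set. The transcripts of EPCAM, MARVELD3, OCLN, CDH1, CLDN4, CLDN7 and KRT18 had no match of 200 bases or more at 90% identity elsewhere in the genome. MARVELD2, KRT8 and KRT19 had 1 such match each, of 200 to 212 bases, a small stretch of each transcript.

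The DNA before the annotated start of EPCAM, MARVELD2, CDH1 and KRT8 is shown because these genes carry the different patterns described below. Each run is from the RefSeq sequence of Sscrofa11.1, read 5′ to 3′ on the strand of the gene, and capitals mark the E-box letters CAGGTG or CACCTG, the core to which the repressors ZEB1, ZEB2, SNAI1 and SNAI2 bind, the GC box letters GGGCGG or CCGCCC, and the TATA box letters TATAAA or TTTATA.
EPCAM, chr3:93185222-93185471, minus strand: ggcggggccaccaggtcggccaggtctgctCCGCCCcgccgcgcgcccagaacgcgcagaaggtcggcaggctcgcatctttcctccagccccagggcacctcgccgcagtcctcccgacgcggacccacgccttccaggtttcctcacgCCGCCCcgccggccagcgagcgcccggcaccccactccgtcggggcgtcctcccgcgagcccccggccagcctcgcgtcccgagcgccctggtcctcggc
MARVELD2, chr16:47529704-47529856, plus strand: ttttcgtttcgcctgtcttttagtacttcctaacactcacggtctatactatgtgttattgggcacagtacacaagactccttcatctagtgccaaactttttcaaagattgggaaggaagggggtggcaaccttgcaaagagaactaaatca
CDH1, chr6:18155987-18156236, minus strand: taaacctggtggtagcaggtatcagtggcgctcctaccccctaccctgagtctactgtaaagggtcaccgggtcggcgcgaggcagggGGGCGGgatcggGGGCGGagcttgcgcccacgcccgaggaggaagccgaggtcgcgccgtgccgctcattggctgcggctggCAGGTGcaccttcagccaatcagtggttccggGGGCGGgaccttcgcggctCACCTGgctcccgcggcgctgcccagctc
KRT8, chr5:18180278-18180527, minus strand: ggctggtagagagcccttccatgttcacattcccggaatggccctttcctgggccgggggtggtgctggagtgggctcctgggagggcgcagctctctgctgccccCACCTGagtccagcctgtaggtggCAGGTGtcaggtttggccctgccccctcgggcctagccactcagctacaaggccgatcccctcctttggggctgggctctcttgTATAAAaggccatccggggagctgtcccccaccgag

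In the 250 bases before the gene start, searched on both strands, EPCAM had 2 GC boxes, 35 CpG dinucleotides, a GC content of 77.6% and no E-box of these letters. CDH1 had 2 E-boxes and 3 GC boxes, and KRT8 had 2 E-boxes and a TATA box. The E-box letters were also present before MARVELD3, CLDN4, KRT18 and KRT19 and absent before OCLN and CLDN7, so that 6 of the 8 other members held them. Among 19556 windows of the same length before annotated genes, 19.6% held the E-box letters, 45.9% the GC box and 9.77% the TATA box. The grainyhead letters AACCGGTT, present in 0.092% of the windows, were in no member's window. MARVELD2 is less certain, since its transcripts have several annotated starts. The run shown is the 153 bases between the end of RAD17 and the first of these starts, while the windows before the starts at 47530118 and 47530342 had a GC content of 72.8% and 80.4% and 1 E-box each. The window before a further start, at 47531474, had a GC content of 31.6% and no E-box. These matches describe the letters of the windows, and binding was not measured.

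EPCAM, the epithelial cell adhesion molecule, was low in the SLS ovaries and high in ZD5 and ZD7. Its level was 0.312, 0.339 and 1.28 FPKM in ZD2, ZD3 and ZD12, and 27.8, 9.73 and 2.31 FPKM in ZD5, ZD7 and ZD8. The reads behind these levels were 26, 24 and 93 in the SLS libraries and 2187, 810 and 102 in the LLS libraries. The groups did not overlap, but the lowest LLS ovary, ZD8, was only 1.80 times the highest SLS ovary, ZD12. The group means were 0.645 ± 0.554 FPKM in SLS and 13.3 ± 13.1 FPKM in LLS (SD, n = 3 each), a ratio of 20.6, and the SD of the LLS group was as large as its mean. The difference of the means of log2(FPKM + 1) was 2.66, and 3.47 without ZD8.

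MARVELD2, which codes for tricellulin, the seal of tricellular corners, was highest in the same 4 ovaries as EPCAM, in the same order. It was measured at 0.490, 0.304 and 2.42 FPKM in ZD2, ZD3 and ZD12, and at 23.0, 12.7 and 2.62 FPKM in ZD5, ZD7 and ZD8. The long transcript gave more reads than EPCAM, from 70 in ZD3 to 5911 in ZD5. The groups touched, since ZD8 was 1.08 times ZD12, and the separation of the groups rests on this margin. The means were 1.07 ± 1.17 FPKM in SLS and 12.8 ± 10.2 FPKM in LLS (SD, n = 3 each), and the log2 difference was 2.50 with ZD8 and 3.27 without it.

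Of the 23564 genes above 0 FPKM in at least 1 library, 557 (2.36%) were higher in LLS with no overlap of the groups and 567 (2.41%) were lower. EPCAM and MARVELD2 belong to the former because they were selected on this contrast, and nothing is read from that count. Among the 8 other members, none was higher without overlap and 1, KRT18, was lower. In the test across all genes, limma on log2(FPKM + 1) with the Benjamini-Hochberg adjustment, 12260 genes had at least 1 FPKM in at least 3 libraries and 0 (0%) were called at an adjusted p under 0.05 and a log2 difference over 1. At an unadjusted p under 0.05 there were 216 such genes, edgeR's quasi-likelihood test on the recovered reads called 0 and DESeq2 called 20. Of the 8 members not selected on the contrast, CDH1, KRT8 and KRT19 entered this test and 0 were called, also with edgeR and DESeq2. OCLN, CLDN7, CLDN4, KRT18 and MARVELD3 were below the minimum and were not tested.

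**Figure D1:**
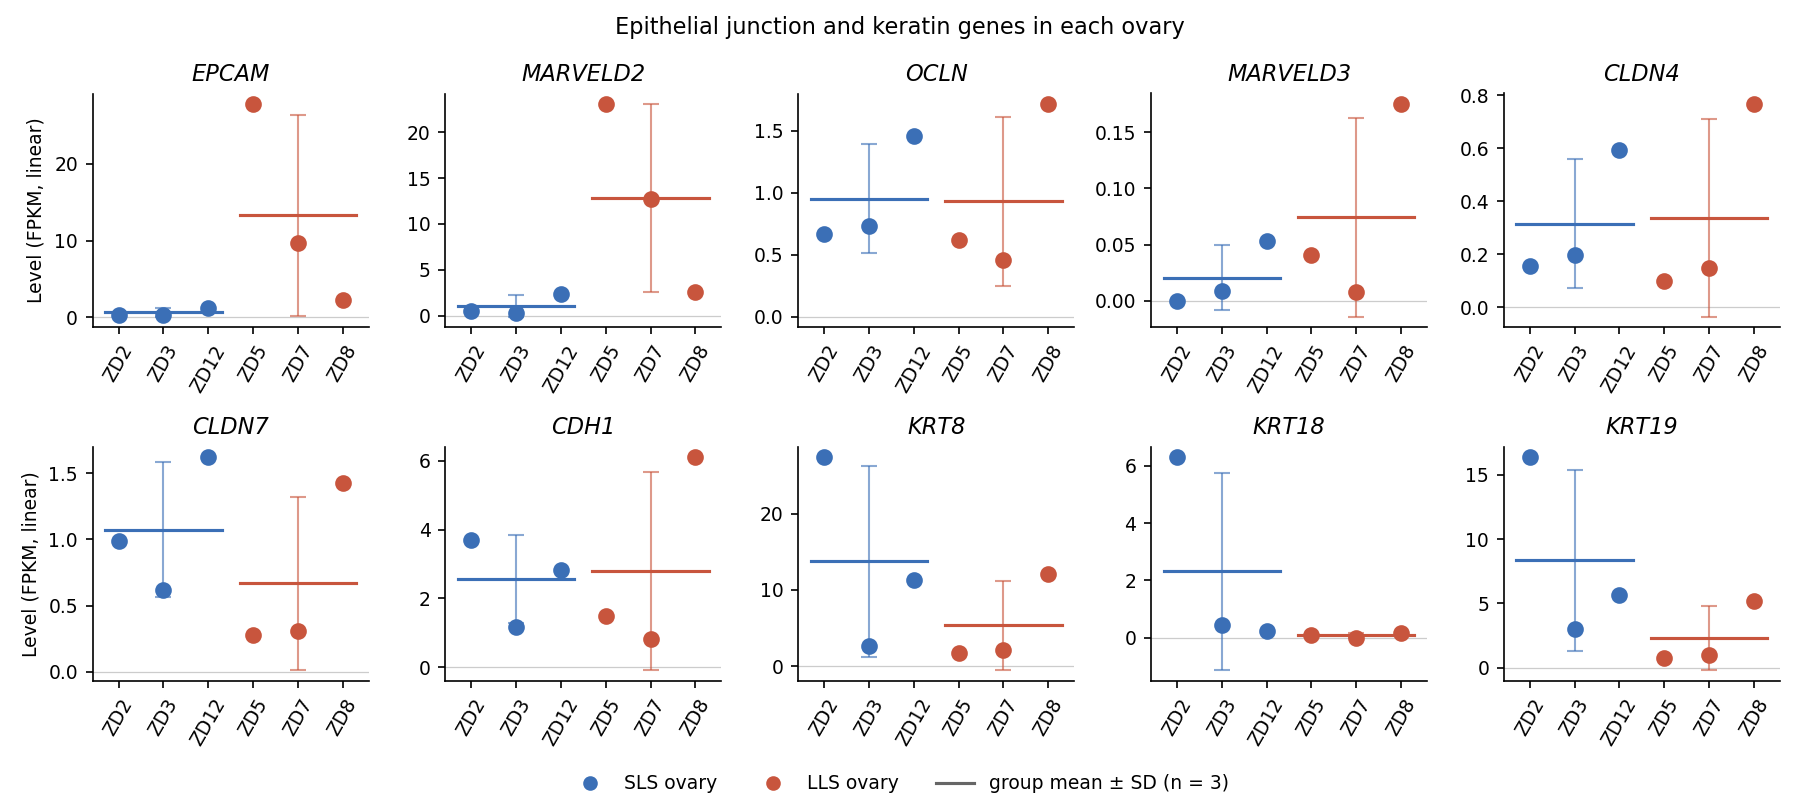
Level of each gene in FPKM on a linear axis, with a separate scale for each panel, with 1 point per ovary, blue for SLS and red for LLS, lines for the group means and bars for the SD (n = 3). EPCAM and MARVELD2 peak in ZD5 and ZD7, at 9.73 to 27.8 FPKM, where KRT8, KRT19 and CLDN7 are at their lowest.

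The tight junction strand genes did not follow MARVELD2. OCLN, which codes for occludin, the partner of tricellulin between 2 cells, was at 0.666, 0.730 and 1.46 FPKM in ZD2, ZD3 and ZD12, and at 0.618, 0.456 and 1.71 FPKM in ZD5, ZD7 and ZD8. Its lowest levels were those of the ovaries in which MARVELD2 was highest, and the group means of 0.952 ± 0.441 and 0.930 ± 0.685 FPKM (SD, n = 3 each) overlapped. The log2 difference was −0.05, and −0.32 without ZD8. The ratio of MARVELD2 to OCLN, both per length of transcript, was 37.3 in ZD5 and 27.9 in ZD7, and between 0.416 and 1.66 in the other 4 ovaries. OCLN starts downstream of MARVELD2 on the same strand, and r between the genes was −0.31. Both were higher in ZD12 and ZD8 than in ZD2 and ZD3, and they differed in ZD5 and ZD7.

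MARVELD3, the third MARVEL-domain protein of tight junctions, was barely detected. It had 0, 1 and 6 reads in the SLS libraries and 5, 1 and 12 reads in the LLS libraries, and its highest level was 0.175 FPKM in ZD8. With at most 12 reads in a library, no fold is given.

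CLDN4 and CLDN7 code for claudins of tight junction strands, and claudin-7 is the one that EPCAM binds. CLDN7 was at 0.986, 0.615 and 1.62 FPKM in ZD2, ZD3 and ZD12, and at 0.276, 0.305 and 1.42 FPKM in ZD5, ZD7 and ZD8. The ovaries with the most EPCAM thus had the least CLDN7, with 18 and 21 reads, while ZD8 lay inside the SLS range. The log2 difference was −0.35, and −0.66 without ZD8. CLDN4 was at 0.157, 0.196 and 0.596 FPKM in ZD2, ZD3 and ZD12, and at 0.0977, 0.148 and 0.767 FPKM in ZD5, ZD7 and ZD8. It was highest in ZD12 and ZD8 as was OCLN, rested on 10 to 56 reads, and its log2 difference was 0.00, and −0.21 without ZD8.

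CDH1 codes for E-cadherin, the cadherin of epithelial adherens junctions. It was at 3.69, 1.16 and 2.83 FPKM in ZD2, ZD3 and ZD12, and at 1.48, 0.816 and 6.10 FPKM in ZD5, ZD7 and ZD8. ZD8 was the highest and ZD7 the lowest of all ovaries, so the LLS group spanned the SLS group. The log2 difference was −0.10 with a standard error of 0.54 (limma, adjusted p = 0.999), and −0.68 without ZD8. EPCAM was 18.8 times as high as CDH1 in ZD5 and 11.9 times in ZD7, whereas it was between 0.0845 and 0.453 times CDH1 in the other 4 ovaries.

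The simple keratins were highest in the SLS ovary ZD2. KRT8, the type II keratin of simple epithelia, was at 27.4, 2.67 and 11.2 FPKM in ZD2, ZD3 and ZD12, and at 1.77, 2.15 and 12.1 FPKM in ZD5, ZD7 and ZD8. ZD3 was close to ZD5 and ZD7, and ZD8 exceeded ZD12, so the groups overlapped. The log2 difference was −1.16 with a standard error of 0.82 (limma, adjusted p = 0.999). It was −1.88 without ZD8 and −0.47 without ZD2, so that 1 SLS ovary carried most of it. The ratio of KRT8 to EPCAM ran from 87.7 in ZD2 to 0.0637 in ZD5.

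KRT19, the smallest keratin of simple epithelia, was at 16.4, 2.98 and 5.67 FPKM in ZD2, ZD3 and ZD12, and at 0.735, 1.01 and 5.21 FPKM in ZD5, ZD7 and ZD8. ZD5 and ZD7 were the lowest, and ZD8 lay between ZD3 and ZD12. The log2 difference of −1.47 had a standard error of 0.64, with an unadjusted p of 0.0506 and an adjusted p of 0.999 by limma across all genes. It was −2.05 without ZD8 and −0.89 without ZD2.

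KRT18, the type I partner of KRT8, was at 6.30, 0.431 and 0.237 FPKM in ZD2, ZD3 and ZD12, and at 0.0967, 0 and 0.151 FPKM in ZD5, ZD7 and ZD8. In ZD7 it had 0 reads, and 3 reads would be 0.0343 FPKM. The groups did not overlap, but the LLS libraries held only 8, 0 and 7 reads and ZD12 held 18. The log2 difference of −1.12 became −1.16 without ZD8 and −0.30 without ZD2. KRT8 and KRT18 kept no common level, since ZD8 had 12.1 FPKM of KRT8 and 0.151 FPKM of KRT18.

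EPCAM and MARVELD2 had their 2 highest ovaries, ZD5 and ZD7, in common with 2 of the 6 luteal markers, 2 of the 5 endothelial markers and 1 of the 6 granulosa markers. SCARB1, the HDL receptor of luteal cells, was at 1665 and 1687 FPKM in ZD5 and ZD7 and at 1044 to 1515 FPKM in the SLS ovaries, and PTGFR, the receptor for prostaglandin F, at 148 FPKM in both and at 57.8 to 138 FPKM in SLS. Both were lowest in ZD8, with 31.2 and 17.0 FPKM. The sum of the luteal markers was also highest in ZD5 and ZD7, at 12191 and 10859 FPKM, with ZD3 close behind at 10808 FPKM. KDR and VWF of the endothelium were at 68.7 and 89.7 FPKM in ZD5 and at 90.1 and 127 FPKM in ZD7, and INHBA of granulosa cells was at 4.26 and 4.66 FPKM there and at 2.33 to 4.11 FPKM in the others. None of these markers spanned a range like that of EPCAM or MARVELD2 among ZD2, ZD3, ZD12, ZD5 and ZD7. The sum of the endothelial markers was highest in ZD7 (371 FPKM) and lower in ZD5 (258 FPKM) than in ZD2 and ZD3. Some other markers of these lists went the other way in ZD5 and ZD7. LHCGR of luteal cells was at 22.5 and 24.2 FPKM there and at 27.8 to 70.5 FPKM in SLS. PECAM1 of the endothelium was at 49.0 and 86.0 FPKM there and at 87.7 to 105 FPKM in SLS. For INHA of granulosa cells the levels were 285 and 162 FPKM, and 376 to 726 FPKM in SLS. The share of all genes with ZD5 and ZD7 highest was not counted.

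The 4 smooth muscle markers had their highest sum in ZD2 (1176 FPKM) and their lowest in ZD5 (224 FPKM), and the sums of the other 4 ovaries lay between 412 and 676 FPKM. This is the order of the 6 ovaries for KRT19, and KRT8 differs from it only in that ZD8 exceeded ZD12. The sum was mostly ACTA2, smooth muscle actin, with 1098 FPKM in ZD2 and 196 FPKM in ZD5. All 4 markers were lowest in ZD5, but only ACTA2 and CNN1 were highest in ZD2, while MYH11 (190 FPKM against 28.4 FPKM in ZD2) and DES (27.1 against 25.1 FPKM) were highest in ZD8. OCLN, CLDN4 and CLDN7 were highest in ZD12 and ZD8, and so were the sum of the 7 oocyte markers, with 22.7 and 125 FPKM, and that of the markers of the oviduct and rete ovarii, with 3.29 and 5.20 FPKM against at most 0.702 FPKM in the other ovaries. These sums were WFDC2 and OVGP1 for the larger part. The theca markers (74.4 and 415 FPKM in ZD12 and ZD8, at most 18.9 FPKM elsewhere) and 3 of the 6 granulosa markers were also highest in ZD12 and ZD8. Of these, FSHR was at 4.50 and 10.8 FPKM, AMH at 7.21 FPKM in ZD12 and higher in ZD8, and FOXL2 at 30.6 and 37.8 FPKM. INHA, the most abundant granulosa marker, was highest in ZD12 (726 FPKM) and lowest in ZD8 (66.4 FPKM), and CYP19A1 was at 0 except for 0.014 FPKM in ZD5. The part of other cell types in the levels of the members was not tested.

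By mean level per length over the 6 ovaries, KRT8 came first (9.54 FPKM), followed by EPCAM (6.96), MARVELD2 (6.93), KRT19 (5.33), CDH1 (2.68), KRT18 (1.20), OCLN (0.941), CLDN7 (0.871), CLDN4 (0.327) and MARVELD3 (0.0476). Only the order of CLDN7 above CLDN4 and of CLDN4 above MARVELD3 held in all 6 ovaries. Between the other neighbours in this order the ovaries disagreed, and EPCAM exceeded MARVELD2 in 2 of them. Among the members above 0 in every ovary, the spread was widest for EPCAM, whose highest level was 89.0 times its lowest, and for MARVELD2 with 75.8 times, and narrowest for OCLN with 3.76 times.

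Over the 6 ovaries, log2(FPKM + 1) of EPCAM and of MARVELD2 had a Pearson r of 0.987, and of 0.987 again over the 5 ovaries without ZD8. Without ZD5 and ZD7, the ovaries farthest from the median of EPCAM, r was 0.948 over 4 ovaries. Both genes were selected for their levels in these ovaries, so a high r was fixed by the selection and nothing is read from it. The points also share libraries. The 28 pairs among the other 8 members had a median r of 0.718, and 25 were above 0. KRT8 and KRT19 (0.958) and OCLN and CLDN4 (0.976) were among the closest pairs. The 16 pairs of EPCAM or MARVELD2 with one of the other 8 ran from −0.819 to 0.048 with a median of −0.480, and from −0.820 to 0.389 without ZD8. The members thus showed 2 high ovaries for EPCAM and MARVELD2 (ZD5 and ZD7), 1 for the keratins (ZD2) and 2 for OCLN and CLDN4 (ZD12 and ZD8).

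**Figure D2:**
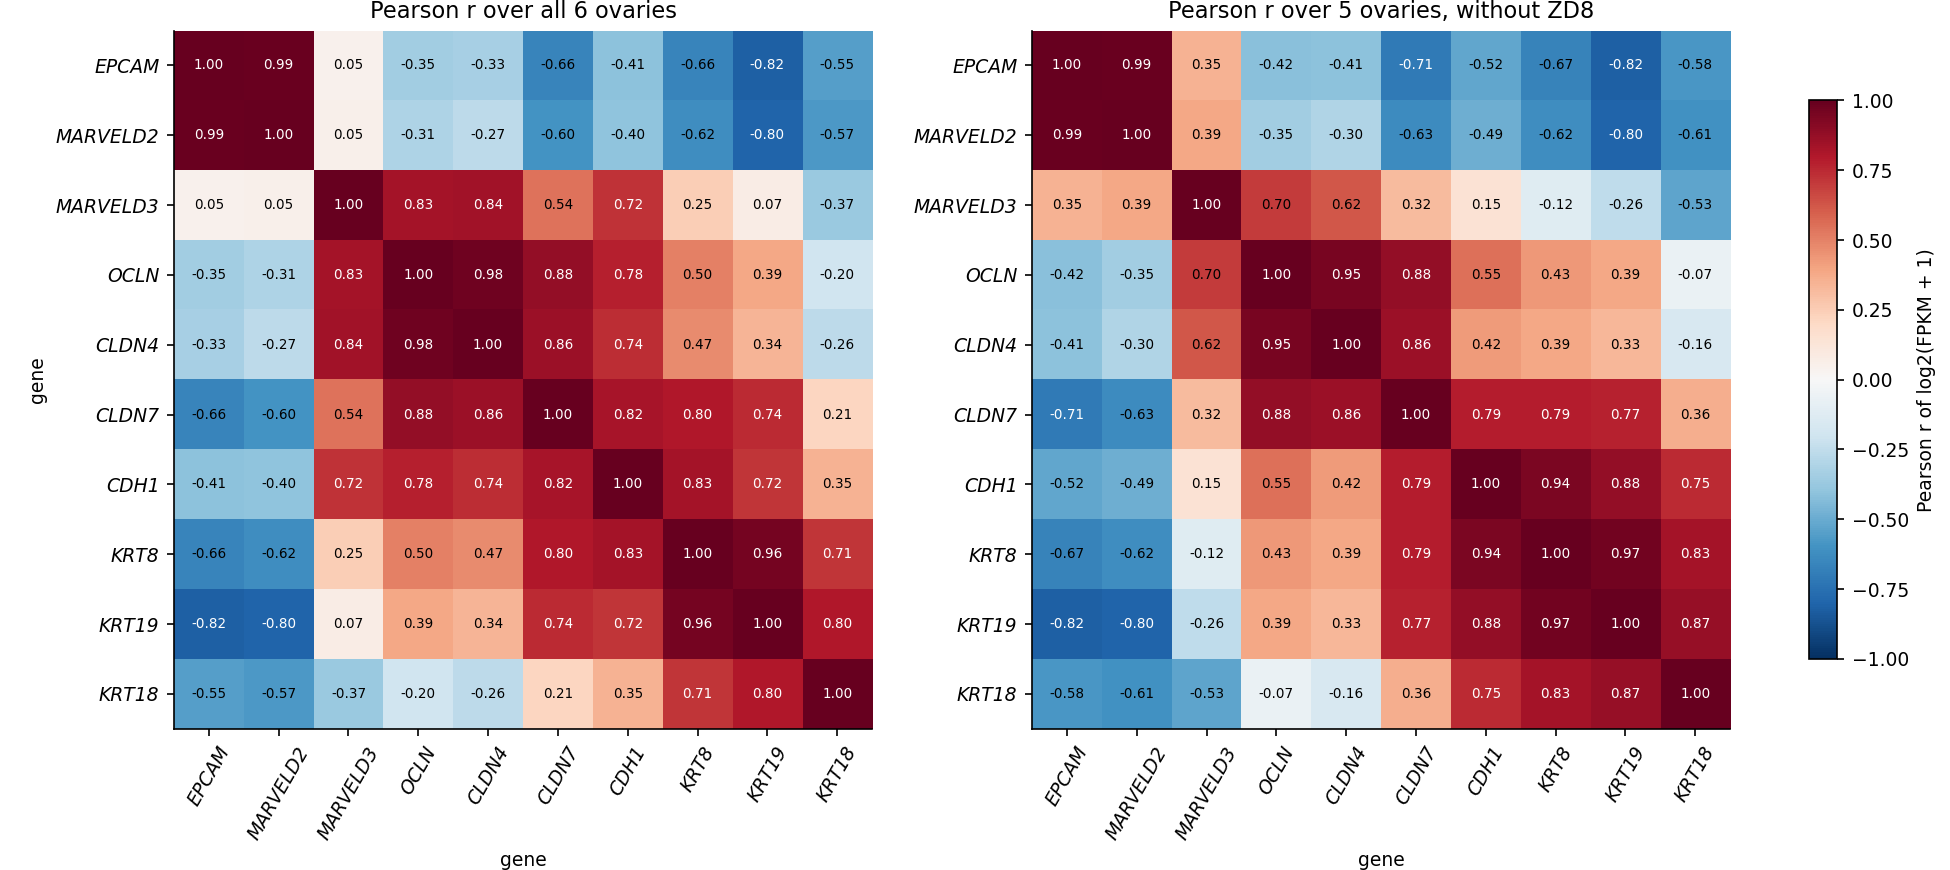
Pearson r of log2(FPKM + 1) for each pair of the 10 genes over all 6 ovaries (left) and over 5 ovaries without ZD8 (right), from blue (−1) to red (1). EPCAM and MARVELD2 form a pair with an r of 0.987 in both panels, and 14 of their 16 values with the other genes are below 0 in the left panel.

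Of 12259 other tested genes, those most like EPCAM over the 6 ovaries were ATXN1L (r = 0.988), MARVELD2 (0.987), PPM1H (0.980) and TMEM62 (0.979), and 46 genes had an r over 0.9. The 5 most like MARVELD2 were TMEM62 (0.997), EPCAM (0.987), PRKD1 (0.983), ATXN1L (0.979) and LANCL2 (0.973). The place of EPCAM and MARVELD2 in each other's list follows from their selection on the same ovaries. Apart from EPCAM and MARVELD2 themselves these genes moved over a narrow range. ATXN1L, a relative of ataxin-1, was at 14.8, 13.8 and 15.3 FPKM in ZD2, ZD3 and ZD12, and at 21.1, 18.5 and 15.7 FPKM in ZD5, ZD7 and ZD8. PPM1H, a protein phosphatase, ranged from 1.75 FPKM in ZD3 to 4.31 FPKM in ZD5. No other member was among the 5 closest genes of either.

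Genes near EPCAM and MARVELD2 were read to see whether the pattern spread over the locus. CALM2, a calmodulin gene upstream of EPCAM, was at 94.8, 174 and 146 FPKM in ZD2, ZD3 and ZD12 and at 129, 105 and 82.8 FPKM in ZD5, ZD7 and ZD8, with its highest level in ZD3. RAD17, a checkpoint gene that ends just before MARVELD2 on the same strand, was at 2.98, 7.20 and 5.12 FPKM in ZD2, ZD3 and ZD12 and at 6.20, 4.47 and 4.73 FPKM in ZD5, ZD7 and ZD8, with no peak in ZD7. TAF9, a subunit of the general transcription machinery, ranged from 8.68 to 10.9 FPKM. Its 2 highest levels were also those of ZD5 and ZD7, but all 6 ovaries lay close together.

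**Figure D3:**
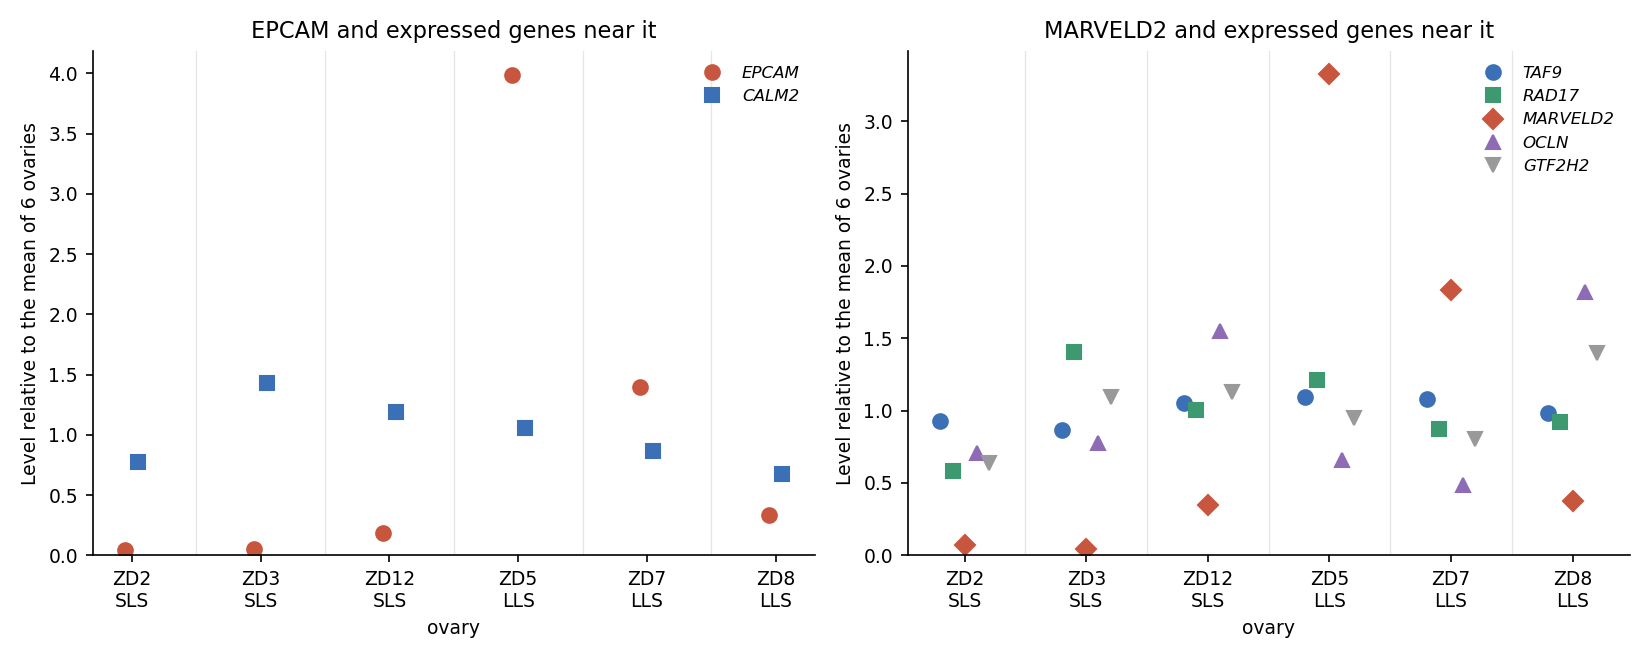
Level of EPCAM (left) and MARVELD2 (right) and of expressed genes beside them, each divided by its own mean over the 6 ovaries, by ovary on a linear axis. EPCAM and MARVELD2 are highest in ZD5 and ZD7, CALM2 is highest in ZD3 with 174 FPKM, and OCLN has its lowest level, 0.456 FPKM, in ZD7.

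A wider set of 87 epithelial genes in 9 lists was read beside the members, and 83 were in the table. Of these, 40 entered the limma test, 0 were called (0% of all 12260 tested genes were) and 0 had an unadjusted p under 0.05. Their median log2 difference was −0.07, beside 0.02 for all tested genes, and both medians were −0.10 without ZD8. ZD8 had the highest level for 42 of the 83, and 30 stayed under 1 FPKM in all 6 ovaries. Of the 83, 1 (GRHL1) was higher in LLS without overlap and 2 (ILDR2 and CTNNB1) were lower. Over all genes above 0 FPKM in at least 1 library, these shares were 2.36% and 2.41%, so nothing is read from the count.

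The partners of tricellulin and the tight junction scaffolds numbered 9, of which 8 were tested and 0 called. LSR, the angulin that brings tricellulin to the corners of cells, was named for that role. It was at 5.21, 3.01 and 4.80 FPKM in ZD2, ZD3 and ZD12, and at 6.41, 7.05 and 4.39 FPKM in ZD5, ZD7 and ZD8. ILDR2, another angulin, was lower in the LLS ovaries, with 26.3, 24.9 and 15.0 FPKM against 27.5 to 28.6 FPKM, and did not pass the test (log2 difference −0.37, limma adjusted p = 0.999). Without ZD8 its log2 difference was −0.13, so ZD8 carried most of it. F11R, which codes for the junctional adhesion molecule JAM-A, ranged from 82.5 to 127 FPKM except in ZD8, where it was at 11.6 FPKM. TJP1, which codes for the scaffold ZO-1, was at 35.6 to 71.8 FPKM, with the highest level in ZD8.

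Of 20 other claudins, 3 were tested and 0 called, and CLDN16, CLDN22 and CLDN25 were at 0 in all libraries. CLDN11, a claudin of Sertoli cells and oligodendrocytes, ranged from 51.2 FPKM in ZD8 to 205 FPKM in ZD12, and CLDN5, the endothelial claudin, from 28.0 to 55.6 FPKM. Both were thus far above CLDN4 and CLDN7 in each ovary. Among the 8 adherens junction genes, 7 were tested and 0 called. CTNNB1, which codes for beta-catenin, the partner of E-cadherin, was at 134 to 142 FPKM in SLS and 105, 108 and 131 FPKM in LLS (log2 difference −0.27, limma adjusted p = 0.999, and −0.37 without ZD8). CTNNA1, which codes for alpha-catenin, was at 79.7 to 99.1 FPKM. Of the 11 desmosome genes, 5 were tested and 0 called. All 5 lay above 0 with a median log2 difference of 0.42, as did 52.6% of all tested genes. Without ZD8, 4 of the 5 lay above 0, with JUP at −0.09 and a median of 0.34, beside 34.0% of all tested genes. DSG2, the desmoglein of simple epithelia, was at 1.64, 2.72 and 3.62 FPKM in SLS and 5.36, 3.66 and 2.69 FPKM in LLS. JUP, plakoglobin, ranged from 39.8 to 83.3 FPKM.

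Of the 7 apical polarity genes measured, 6 were tested and 0 called. PARD3 (53.3 FPKM) and PATJ (33.4 FPKM) were highest in ZD8 and lay at or below 23.3 and 9.02 FPKM elsewhere. The 6 other keratins in the table were low. KRT7 was the one tested, with 3.68, 1.03 and 5.50 FPKM in SLS and 2.48, 5.76 and 0.634 FPKM in LLS, so it peaked in ZD7 and ZD12 and not in ZD2. KRT80 stayed at or below 0.579 FPKM.

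Of the 9 genes in the list of surface proteases, their inhibitors and related surface proteins, 8 were tested and 0 called. ADAM10, a protease that releases the outer part of many surface proteins, was at 63.1, 115 and 46.0 FPKM in SLS and 141, 110 and 32.8 FPKM in LLS. ZD5 was the highest and ZD8 the lowest ovary. SPINT1, an inhibitor in this list, was at 2.27, 1.24 and 1.24 FPKM in SLS and 5.21, 3.71 and 1.68 FPKM in LLS. Its 2 highest ovaries were ZD5 and ZD7, and the groups overlapped. The log2 difference was 0.75 (limma, adjusted p = 0.999), and 1.09 without ZD8. Of the 8 tested genes of the list, 4 lay above 0 and 4 below.

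Transcription and splicing factors of epithelial cells were weak, with 1 of 10 tested and 0 called. GRHL1, a grainyhead-like factor, was at 0.039, 0.028 and 0.063 FPKM in SLS and 0.182, 0.199 and 0.583 FPKM in LLS, below the minimum for the test. ESRP1, an epithelial splicing factor, was at 1.23 FPKM in ZD12 and 6.03 FPKM in ZD8 and at most 0.411 FPKM in the others. It shared its 2 highest ovaries with OCLN and CLDN4, while ZD7 and ZD5 came next, above ZD2 and ZD3. KLF5, a factor of proliferating epithelia, was lowest in ZD5 (0.417 FPKM) and highest in ZD8 (3.72 FPKM). Of the genes of epithelial traffic, MAL2, which acts in transport to the apical membrane, was at 9.42, 15.8 and 12.3 FPKM in SLS and 30.8, 18.4 and 1.25 FPKM in LLS, high in ZD5 and ZD7 as EPCAM was but lowest in ZD8. AP1M2, a subunit of the basolateral sorting adaptor, was at or below 1.02 FPKM.

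The repressors of epithelial genes and their marker vimentin were all tested, 7 of 7, and 0 were called. ZEB2 was at 30.8, 67.6 and 39.7 FPKM in SLS and 58.1, 44.3 and 31.5 FPKM in LLS, with overlapping groups. VIM, the mesenchymal filament, was at 938, 824 and 1233 FPKM in SLS and 509, 738 and 847 FPKM in LLS (log2 difference −0.53, limma adjusted p = 0.999, and −0.68 without ZD8), with the lowest levels in ZD5 and ZD7.

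**Figure D4:**
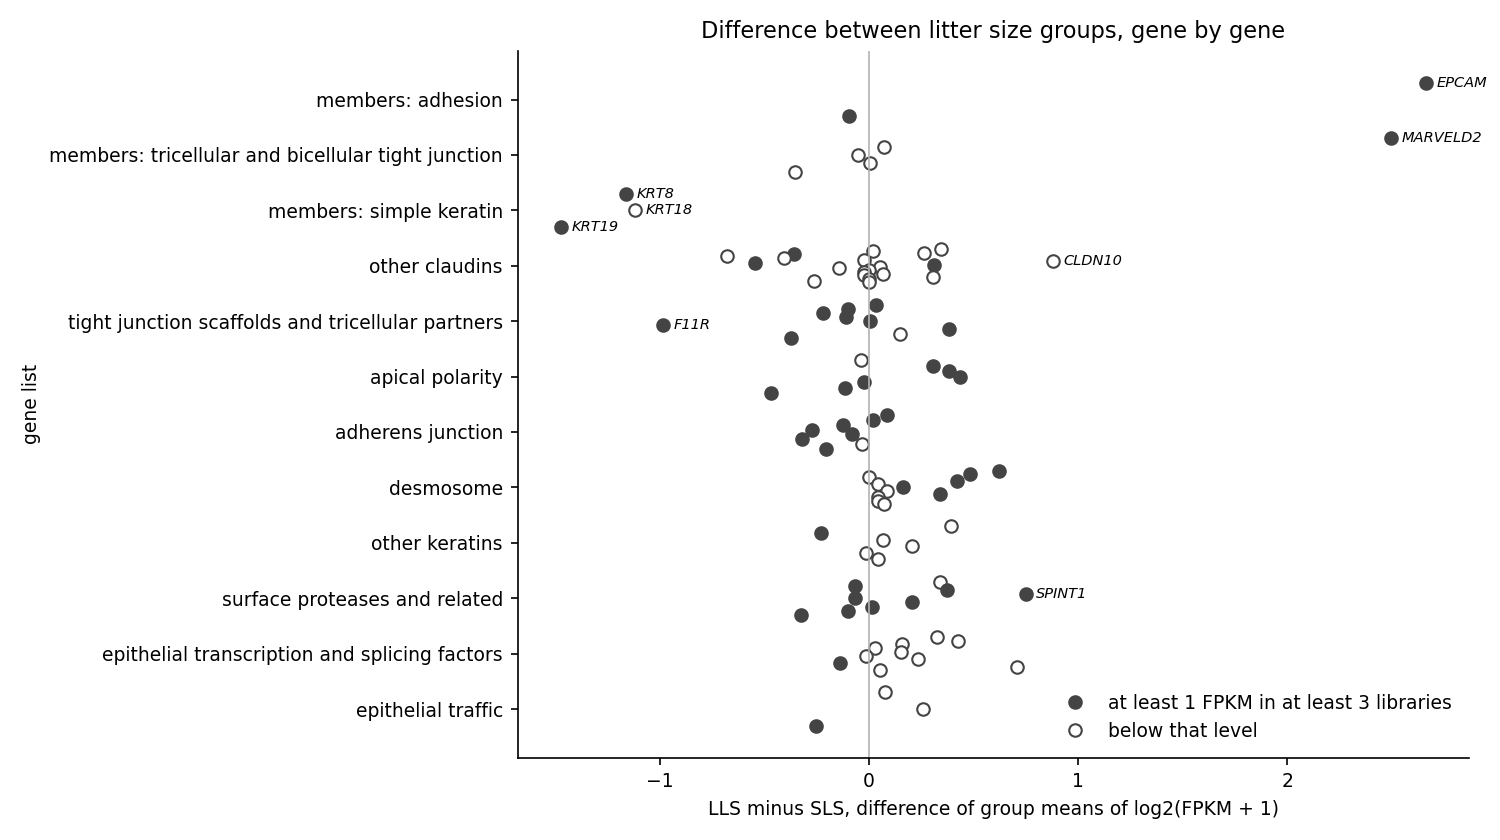
LLS minus SLS difference of the group means of log2(FPKM + 1), 1 point per gene and 1 line per list, filled for genes with at least 1 FPKM in at least 3 libraries and open below that level; genes past 0.75 in either direction are named. EPCAM (2.66) and MARVELD2 (2.50), which were selected on this difference, lie apart from all other lists, and the simple keratins lie between −1.12 and −1.47.

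The miR-200 family represses ZEB1 and ZEB2 and is abundant in epithelial cells, and it was read in the small RNA libraries as an epithelial readout from a separate preparation. Of 5 names searched, 3 were among the 457 miRNAs. Their mature sequences are shown 5′ to 3′ with the seed, bases 2 to 8, in capitals and with T for U as in the deposited table.
miR-200b: tAATACTGcctggtaatgatgac
miR-429: tAATACTGtctggtaatgccgt
miR-141: tAACACTGtctggtaaagatg
miR-200b and miR-429 share the seed AATACTG, and miR-141 has AACACTG.

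The columns of the small RNA table carry the ovary names and were used by group. miR-200b was at 218, 146 and 377 RPM (reads scaled to the library total) in the columns ZD2, ZD3 and ZD12, and at 173, 83.7 and 128 RPM in ZD5, ZD7 and ZD8. miR-141 was at 108, 67.8 and 180 RPM and at 85.5, 47.4 and 84.2 RPM in the same order. miR-429 was at 9.24, 5.94 and 12.1 RPM and at 7.14, 3.39 and 4.26 RPM. In all 3 the highest value was that of ZD12 and the lowest that of ZD7, and the groups overlapped. The log2 differences were −0.89 ± 0.49, −0.64 ± 0.51 and −0.77 ± 0.45 (standard error), and −0.92, −0.77 and −0.71 without ZD8, and limma gave an adjusted p of 0.997 for each. Of 353 miRNAs tested, 0 (0%) were called, none had an unadjusted p under 0.05, and edgeR called 0. None of the family was high in ZD5 and ZD7 together, as EPCAM and MARVELD2 were. Of the other epithelial miRNAs, miR-205 ranged from 6.65 RPM in ZD5 to 55.5 RPM in ZD8 and was not called. The clustered miRNAs miR-183, miR-96-5p and miR-182 had their 2 highest values in ZD5 and ZD7 and their lowest in ZD8. miR-183 was at 84.6, 105 and 51.5 RPM in ZD2, ZD3 and ZD12, and at 184, 266 and 7.37 RPM in ZD5, ZD7 and ZD8. miR-96-5p was at 99.8, 75.8 and 49.1 RPM and at 137, 234 and 7.14 RPM in the same order. miR-182 was at 241, 424 and 182 RPM and at 602, 609 and 26.9 RPM. They shared the 2 highest ovaries with EPCAM and MARVELD2 but not the level in ZD8, where EPCAM and MARVELD2 exceeded the SLS ovaries. Their log2 differences were −0.07, −0.19 and −0.29 with ZD8 and 1.51, 1.30 and 1.19 without it, and none was called (limma, adjusted p = 0.997 for each).

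**Figure D5:**
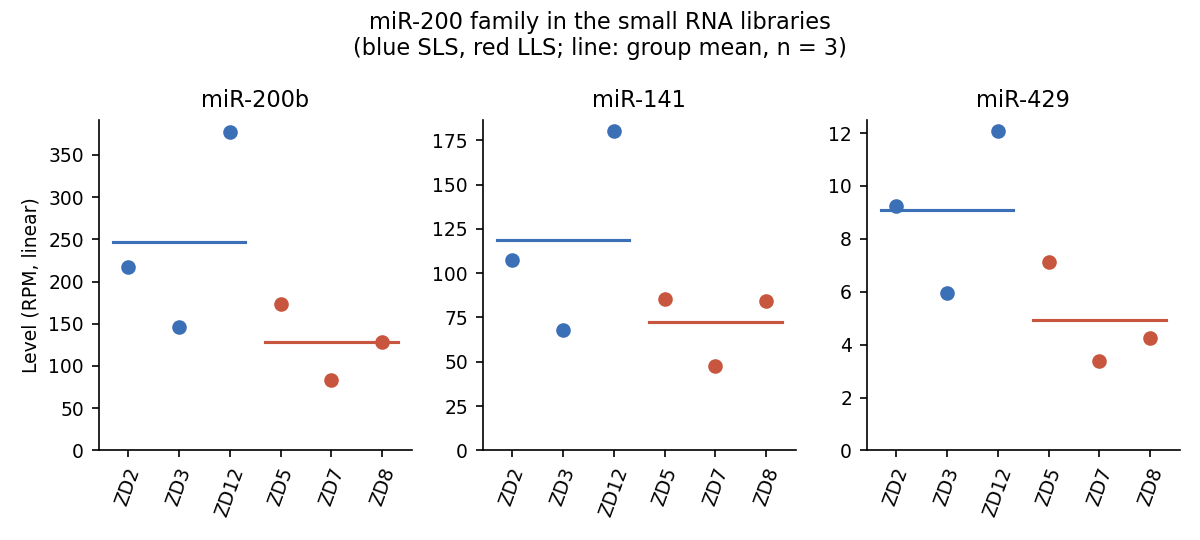
Level of miR-200b, miR-141 and miR-429 in RPM on a linear axis, 1 point per small RNA library, blue for SLS and red for LLS, with a line for each group mean (n = 3). ZD12 is the highest library for each, at 377, 180 and 12.1 RPM, and ZD7 the lowest.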

How the data were processed

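RNA from 6 left ovaries, 3 per group, was sequenced by the authors after removal of ribosomal RNA. Reads were trimmed with NGSQCToolkit and aligned with HISAT2 to Sscrofa11.1, and the authors deposited FPKM values per gene. For small RNA, the submitters' processing notes name BWA, and the authors deposited RPM, reads scaled to the library total. The programs that counted reads are not given in the sources used here. All 12 columns of values were used, and groups follow the labels. The labels name 1 ovary per library, and p-values measure the spread between these ovaries. Litter sizes are given as the study states them, whose methods present results with the SEM.

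From there, limma 3.58.1 in R 4.3.3 was fitted with a trended variance on log2(value + 1), over features with at least 1 FPKM or RPM in at least 3 libraries. A feature was called at an adjusted p under 0.05 (Benjamini-Hochberg over all features) and a log2 difference over 1. Whole reads were recovered from FPKM, the longest RefSeq transcript and the library total for 99.6% of genes above 0 (tolerance 0.001), and from RPM for 100% of values. edgeR 4.0.16 and DESeq2 1.42.0 were run on these reads. Depth was 32272803 to 60903268 reads per gene library and 3537619 to 9854086 per small RNA library, so 3 reads of EPCAM are 0.036 to 0.068 FPKM. These limits cover counting error only. Fits were tested on simulated data. Matches elsewhere in the genome were searched with blastn 2.17.0.

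The members and all lists were chosen with earlier results of these data known. Named were the 10 members, in each list the genes whose groups do not overlap and the 2 with the highest mean FPKM, the 5 tested genes most correlated with EPCAM and with MARVELD2, and the detected miR-200 family. LSR, other cell type markers, other epithelial miRNAs, neighbouring genes and genes at 0 are named beside these for their role or place. SPINT1 is named for its levels in ZD5 and ZD7. Some genes that this rule names are not reported here. CircRNA counts and RT-qPCR were not used here. Alternatives were the pseudocount, the filter, TPM rescaling, median centring, quantile normalization, array weights, both count tests and leaving out each ovary.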

Additional observations from a re-analysis of the deposited data

How the results depend on the processing

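With ZD8 left out, the number of genes called by limma was 21, and over all ovaries left out in turn it ran from 0 to 21. Array weights gave 13 calls and DESeq2 gave 20, while the other settings gave 0. The cause was not tested. Of the 8 members not selected on the contrast, 0 were called under any setting in which they were tested. The log2 difference of EPCAM ranged from 1.91 to 4.53 and that of MARVELD2 from 1.91 to 3.76, always higher in LLS, with the highest from DESeq2 and the lowest without ZD5. KRT8, KRT18, KRT19, CLDN7 and the 3 miRNAs of the miR-200 family were lower in LLS under every setting run. Near 0, the sign changed. OCLN ran from -0.32 to 0.13 over the ovaries left out, CDH1 from -0.68 to 0.31 and CLDN4 from -0.21 to 0.15. CDH1 was at 0.0026 with DESeq2 and 0.036 with edgeR, and CLDN4 at -0.11 with a pseudocount of 0.1. Members below the minimum have no value under TPM rescaling, centring, quantile normalization, weights or the count tests unless they passed there. No paired analysis was possible because the labels give the groups no shared replicate numbers. Few reads lie behind CLDN4 (10 to 56 per library), MARVELD3 (0 to 12) and, in the LLS libraries, KRT18 (0 to 8).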
